A study of Mus musculus with 10 samples.

Results

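Formative and primed state regulators are genes that switch on as pluripotent cells leave the naive state, and 8 of them are described here in mouse embryonic stem cells: Otx2, Pou3f1, Fgf5, Zic2, Zic5, Lin28b, Grhl2 and Sall2. They were taken by symbol, through the Ensembl gene ID, and make up 8 of the 55487 genes in each RNA-seq table. The study maps R-loops with the methods MapR and BisMapR in the E14 line, in 10 samples that fall into 6 groups. Its single RNA-seq group has 3 replicates, and the 7 samples with R-loop reads are not used here. The RNA-seq cells were E14 cells, for which the labels name no genetic change and no agent beyond the medium. That medium was DMEM with 15% FBS, LIF, a GSK inhibitor at 3 µM and a MEK1/2 inhibitor at 1 µM. No other culture state was measured, so every value below is a level in 1 state of 1 cell line. The labels do not say that the replicates came from separate cultures, so their spread may be technical.

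Naive embryonic stem cells correspond to the epiblast before implantation. On leaving that state they pass through a formative phase, in which they become able to respond to lineage signals, and then reach a primed state like that of the epiblast after implantation. FGF signalling through MEK and ERK drives the exit, and a MEK inhibitor with a GSK3 inhibitor and LIF is the usual way to hold mouse cells in the naive state. OTX2 and POU3F1 (OCT6) are transcription factors that help to move OCT4 to the enhancers of the later states, FGF5 is the classical secreted marker of the epiblast after implantation, and GRHL2 opens enhancers of epithelial genes.

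Levels ran from undetected (Fgf5) to a mean of 2.84 TPM (Zic2), where TPM is transcript abundance scaled by length and to the same total in each library. TPM averaged at least 1 for 4 of the 8: Zic2, Zic5, Otx2 and Lin28b. The same was true of 19.8% of all genes and of 44.1% of protein-coding genes. Grhl2, Sall2 and Pou3f1 had counts in every library but a mean TPM under 1, and Fgf5 had none. In all, 7 of the 8 exceeded 3 estimated counts, the floor used here for detection, in every replicate, against 26.3% of all genes and 56.1% of protein-coding genes. The median of log2(TPM + 1) over the 8 was 0.73 ± 0.22 (SD, n = 3), beside 0.53 ± 0.11 (SD, n = 3) over protein-coding genes.

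**Figure D1:**
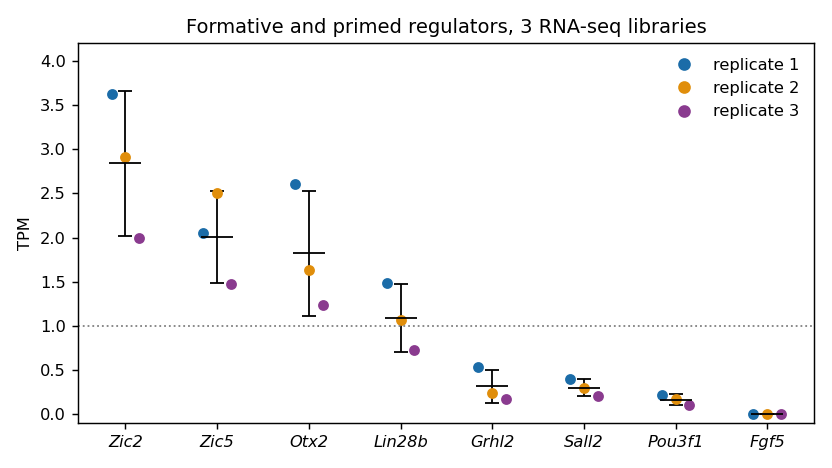
TPM of the 8 regulators in each of the 3 RNA-seq replicates (points), with the mean (bar) and SD (whiskers); the dotted line marks 1 TPM. Replicate 3 is the lowest of the 3 for each of the 7 genes with counts, and Fgf5 is at 0 throughout.

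The libraries differed in depth and in composition. They held 5787357 to 11420425 estimated counts, so 3 counts amount to 0.263 to 0.518 CPM (counts scaled to the same total in each library but not by length). Genes of effective length under 100 nt took 60.3% to 65.8% of all TPM, and without them log2 TPM of every other gene would be 1.33 to 1.55 higher. TPM values below are therefore on the deposited scale. They are comparable between genes of 1 library, less so between libraries or with those of other studies. Over 12318 protein-coding genes above the floor in every replicate, the median ratio of replicate 1 to replicate 3 was 1.54 in TPM and 1.14 in CPM. The SDs of TPM over replicates include this shift, and its cause was not tested. All 7 stem cell markers checked, among them Pou5f1 and Nanog, were above 1 TPM, with a summed level of 1124.4 to 1574.4 TPM across replicates.

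FGF5 is the secreted member of the list and the one without a single count. Fgf5 (ENSMUSG00000029337, chromosome 5, 98254184 to 98277030, plus strand, GRCm38) had 0, 0 and 0 estimated counts in replicates 1, 2 and 3. The limit that a count of 0 allows, taken as 3 counts, is 0.0783, 0.113 and 0.111 TPM in the same order. Fgf5 was thus not detectable at this depth, and the limit covers counting error only. Its relative Fgf4, the FGF that naive cells themselves secrete, had 58.46, 41.68 and 29.74 TPM. No fold between the pair is given because Fgf5 is at 0. The relative Fgf6 was also at 0 counts in each replicate. Of the 4 FGF receptor genes, Fgfr1 reached a mean of 7.81 ± 3.03 TPM (SD, n = 3), and Fgfr2, Fgfr3 and Fgfr4 were each below 1 TPM in every library. Other secreted FGFs of later embryonic states were low, Fgf15 at 0.487 ± 0.119 TPM (SD, n = 3) and Fgf8 at 2, 1 and 0 counts.

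The Fgf5 promoter is shown because Fgf5 is the 1 member without a count and has the most CG dinucleotides before its start among the members with a RefSeq promoter entry. The 250 bases before the RefSeq start are printed 5′ to 3′ on the plus strand of GRCm38.p6 (chr5:98253934-98254183), with each CG in capitals.
Fgf5: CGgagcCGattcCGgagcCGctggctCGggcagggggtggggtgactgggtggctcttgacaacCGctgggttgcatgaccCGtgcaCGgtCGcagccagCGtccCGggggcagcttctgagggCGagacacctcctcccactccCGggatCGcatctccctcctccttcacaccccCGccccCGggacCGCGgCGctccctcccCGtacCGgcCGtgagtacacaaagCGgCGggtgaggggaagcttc
The stretch has 24 CG (the motif reads the same on both strands), and 12.0% of the 32851 RefSeq promoter windows of the same length have as many or more. Its G and C content is 70.8%. The median window had 6 CG. The count describes the letters only, and neither methylation nor binding was measured.

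OTX2 is a homeodomain factor needed for the exit from the naive state and later for the head and forebrain. Otx2 (ENSMUSG00000021848, chromosome 14, 48657677 to 48673819, minus strand) had 122, 53 and 28 estimated counts in replicates 1, 2 and 3. These gave 2.61, 1.63 and 1.23 TPM, a mean of 1.82 ± 0.71 (SD, n = 3). Replicate 1 was highest and replicate 3 lowest, and the 95% counting intervals of those libraries, 2.17 to 3.12 and 0.814 to 1.77 TPM, did not overlap. Those of Zic2, Lin28b and Grhl2 did not overlap between these libraries either, while those of Zic5, Sall2 and Pou3f1 did. The ratio of replicate 1 to replicate 3 was 2.12 in TPM and 2.21 in CPM, beside medians of 1.54 and 1.14 over protein-coding genes above the floor. The other genes of the family were lower in all 3 libraries. Otx1 had 0.25, 0.08 and 0.01 TPM from 21, 7 and 1 counts, so it was under the floor in replicate 3. Crx, a photoreceptor factor, had 1 count in each library. The lincRNA gene Otx2os1, which starts inside the Otx2 locus on the opposite strand, had 1, 1 and 0 counts, and Gm49154, which overlaps the first exon of 1 of the 11 Otx2 transcripts on the same strand, had none.

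POU3F1 is the POU factor that accompanies OTX2 in the formative phase and is later used in neural and Schwann cells. Pou3f1 (ENSMUSG00000090125, chromosome 4, 124656807 to 124660655, plus strand) is a gene of 1 exon and 1 annotated transcript. It had 22, 12 and 7 counts, equal to 0.22, 0.17 and 0.1 TPM. The mean of 0.163 ± 0.0603 TPM (SD, n = 3) was the lowest among the 7 detected members. In replicate 3 the 95% counting interval was 0.0399 to 0.204 TPM, which includes the level seen in replicate 2. Its relatives were lower still: Pou3f3 had 0.0533 ± 0.0231 TPM (SD, n = 3), Pou3f2 had 1, 0 and 0 counts, and Pou3f4 had none. The antisense gene Gm2164 shares 331 transcript bases with Pou3f1 (8.6% of its length) and had no counts in any replicate.

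The ZIC proteins are zinc finger factors of the early embryo, the neural plate and the neural crest. Zic2 (ENSMUSG00000061524, chromosome 14, 122475435 to 122479852, plus strand) and Zic5 (ENSMUSG00000041703, chromosome 14, 122456795 to 122465677, minus strand) lie head to head with starts 9758 bp apart. Zic2 was the highest member, with 218, 117 and 71 counts and 3.63, 2.91 and 1.99 TPM, a mean of 2.84 ± 0.822 (SD, n = 3). Zic5 followed with 167, 93.94 and 57 counts and 2.05, 2.51 and 1.47 TPM, a mean of 2.01 ± 0.521 (SD, n = 3). Zic2 was above Zic5 in each library, but the difference of 0.34 ± 0.23 (SD, n = 3) in log2(TPM + 1) was within 2 SD. Zic1 and Zic4, the other linked pair of ZIC genes, were near or at 0: Zic1 had 5, 3 and 2 counts and Zic4 had none. The divergent transcript 2610035F20Rik, which starts 236 bp from Zic2, had 1 count in each library.

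For both ZIC members the deposited level is a sum over 2 annotated transcripts. The tables give for each gene a mean transcript length weighted by the estimated share of each transcript, so for a gene with 2 annotated transcripts the shares follow from it. The coding transcript Zic2-201 (2440 nt) made up 94.7%, 89.7% and 74.7% of Zic2 in replicates 1, 2 and 3, and the rest was Zic2-202, a 765 nt transcript with a retained intron. For Zic5 the coding transcript Zic5-201 (4767 nt) made up 59.8%, 34.8% and 36.1%, and the noncoding Zic5-202 (705 nt) the rest. Multiplied by the gene's TPM, Zic5-201 had 1.23, 0.873 and 0.531 TPM and Zic5-202 had 0.824, 1.64 and 0.939 TPM. Zic5-202 therefore exceeded Zic5-201 in replicates 2 and 3. The mean over replicates was 0.877 ± 0.348 TPM for Zic5-201 and 2.51 ± 0.979 TPM for Zic2-201 (SD, n = 3 for each). These shares have no interval of their own, because the tables hold no counts per transcript.

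**Figure D2:**
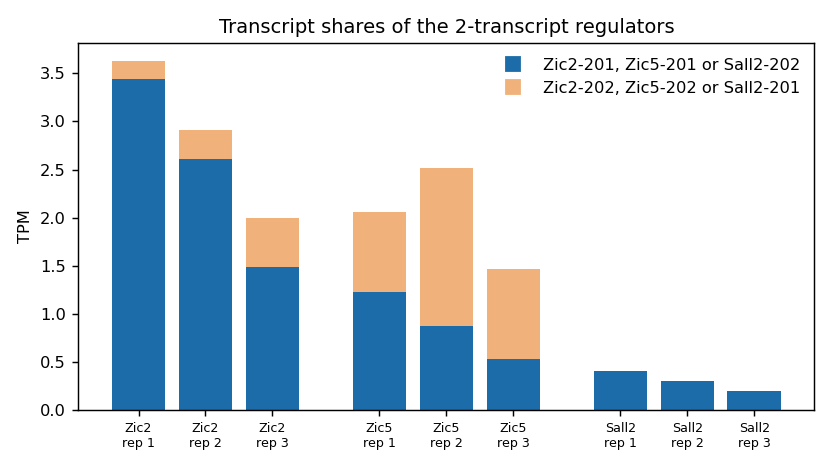
TPM of each transcript of Zic2, Zic5 and Sall2 in replicates 1, 2 and 3 (stacked bars, 1 bar per replicate), from the deposited gene TPM and mean length. Zic5-202 makes up more than Zic5-201 in replicates 2 and 3, and Sall2 is assigned wholly to Sall2-202.

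Zic5 was also the member whose count was not a whole number in every library. RSEM divides a read that matches several genes between them, which can leave a fraction in the count. The longest stretch of Zic5-201 found on the same strand in a transcript of another gene is 146 bases, bases 1774 to 1919 of the transcript, inside the coding part. It spans 2 exons (chr14:122463892-122463904 and chr14:122459643-122459775, minus strand, GRCm38), and the same letters occur in Gm12241 (chromosome 11, 56459349 to 56460074), a processed pseudogene. It is printed because reads from it cannot be assigned by sequence alone.
Zic5 and Gm12241: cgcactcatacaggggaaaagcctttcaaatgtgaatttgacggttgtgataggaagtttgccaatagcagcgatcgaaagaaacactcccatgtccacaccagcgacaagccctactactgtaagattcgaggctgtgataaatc
Gm12241 had 0, 0.06 and 0 counts in replicates 1, 2 and 3. Replicate 2, where Zic5 had 93.94 counts, was the library with the fraction. Whether reads from the shared stretch gave this fraction was not tested. Stretches of at least 50 bases shared with other genes, on either strand, covered 62.4% of Zic5-202 and 15.8% of Zic5-201, against 0% of both Zic2 transcripts, and the read length is not given in the sources used here. The other 7 members had whole counts (within 0.005) in every replicate, as had 19372 of the 24350 genes with a count in any library.

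SALL2 is a zinc finger factor of the spalt family with roles in neural development and in the control of growth. Sall2 (ENSMUSG00000049532, chromosome 14, 52311172 to 52328762, minus strand) had 50, 26 and 18 counts and 0.4, 0.3 and 0.2 TPM, a mean of 0.3 ± 0.1 (SD, n = 3). Its relatives Sall4 and Sall1, factors of the stem cell network, were far higher in each library. Sall4 had 24.41, 16.9 and 8.06 TPM, 40.3 to 61.0 times the Sall2 value, and Sall1 had 14.74, 11.07 and 4.84 TPM, 24.2 to 36.9 times. Sall3 had 0.703 ± 0.417 TPM (SD, n = 3), above Sall2 in 3 of 3 libraries, and this difference of 0.36 ± 0.24 (SD, n = 3) in log2(TPM + 1) was within 2 SD.

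The starts of Sall2 are a reason to print its sequence. The gene has 2 annotated transcripts whose starts are 12439 bp apart: Sall2-201 (5147 nt) from the upstream start and Sall2-202 (4773 nt) from the downstream one. The deposited mean length was 4773 nt in every library, so 100.0% of the estimated abundance was assigned to Sall2-202 and 0% to Sall2-201. The first exons, 660 and 281 nt, tell the transcripts apart, and the whole gene had 18 to 50 counts per library, so the share of 0% rests on few reads. The 250 bases before each RefSeq start are printed 5′ to 3′ on the minus strand of GRCm38.p6, with each CG in capitals; the first is chr14:52328671-52328920 and the second chr14:52316324-52316573.
Sall2 upstream start: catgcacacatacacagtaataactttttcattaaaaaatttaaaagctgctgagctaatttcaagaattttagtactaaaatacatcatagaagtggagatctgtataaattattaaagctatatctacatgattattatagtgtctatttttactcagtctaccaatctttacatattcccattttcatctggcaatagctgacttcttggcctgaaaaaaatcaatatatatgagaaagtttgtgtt
Sall2 downstream start: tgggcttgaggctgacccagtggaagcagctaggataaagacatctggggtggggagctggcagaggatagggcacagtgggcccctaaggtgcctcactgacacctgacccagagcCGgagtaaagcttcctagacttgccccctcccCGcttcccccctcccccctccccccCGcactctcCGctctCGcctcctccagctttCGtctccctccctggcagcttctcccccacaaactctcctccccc
The upstream window holds 0 CG and 28.0% G and C, and 7.87% of all windows have no CG. The downstream window holds 6 CG and 64.4% G and C, and its RefSeq start is the first base of Sall2-202. The upstream RefSeq start, 52328670, is not the first base of Sall2-201, which lies at 52328762. Of the 8 members, 5 had entries among the RefSeq promoters (Otx2, Fgf5, Zic5, Lin28b and Sall2), and Pou3f1, Zic2 and Grhl2 had none there. The 9 windows of those 5 genes ranged from 0 CG at Sall2 to 24 at Fgf5. Otx2 has 4 such windows with 6 to 14 CG, Zic5 has 1 with 11, and Lin28b 1 with 6.

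GRHL2 is a grainyhead factor that primes enhancers of epithelial genes as cells leave the naive state. Grhl2 (ENSMUSG00000022286, chromosome 15, 37233036 to 37363569, plus strand) had 43, 17 and 12 counts and 0.53, 0.24 and 0.17 TPM, a mean of 0.313 ± 0.191 (SD, n = 3). Its CV (SD over mean), 60.9%, was the largest among the 7 detected members in deposited TPM. With 1 fixed length per gene the CV of Grhl2 was 47.5%, and that of Otx2 went from 38.9% to 51.9%, the largest. The deposited length ran from 3151.27 to 3933.86 nt for Grhl2 and from 1336.69 to 1864.28 nt for Otx2. The relative Grhl3 was higher in each library, at 4.51, 2.91 and 2.34 TPM, 8.51 to 13.8 times Grhl2. Grhl1 had 0.61, 0.59 and 0.3 TPM and was above Grhl2 in 3 of 3 libraries by 0.19 ± 0.15 (SD, n = 3) in log2(TPM + 1), within 2 SD. The 3 annotated genes that overlap Grhl2 on the other strand, Gm16136, Gm16137 and Gm16138, had no counts.

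The epithelial genes linked to GRHL factors were uneven. Of 11 listed, 5 had a mean of at least 1 TPM and 10 exceeded the floor in every library, with a median log2(TPM + 1) of 0.60 ± 0.16 (SD, n = 3). Cdh1, which encodes E-cadherin, was highest at 44.8 ± 13.5 TPM (SD, n = 3), followed by the claudin gene Cldn4 at 14.5 ± 3.27 TPM (SD, n = 3). The splicing factor Esrp1, the vesicle GTPase Rab25 and the repressor Ovol2 were each below 1 TPM in every library, and Ovol1, the lowest, had 1, 0 and 0 counts.

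LIN28B is an RNA-binding protein that blocks the maturation of let-7 microRNAs and is itself a let-7 target. Lin28b (ENSMUSG00000063804, chromosome 10, 45376620 to 45486395, minus strand) had 194, 92 and 61 counts and 1.49, 1.07 and 0.72 TPM, a mean of 1.09 ± 0.386 (SD, n = 3). It lay above 1 TPM in replicates 1 and 2 and below it in replicate 3. The paralog Lin28a had 7.24, 5.87 and 4.31 TPM, 4.86 to 5.99 times Lin28b. The difference of 1.69 ± 0.06 (SD, n = 3) in log2(TPM + 1) was beyond 2 SD. All 13 genes of the LIN28 and let-7 list, which includes Lin28a, averaged at least 1 TPM, with a median log2(TPM + 1) of 3.04 ± 0.40 (SD, n = 3). The RNA-binding protein gene Igf2bp1 was highest at 19.9 ± 8.39 TPM and Arid3a lowest at 1.71 ± 0.362 TPM (SD, n = 3 for each). Hmga2, a classical let-7 target, had 3.03 ± 1.06 TPM (SD, n = 3), and the terminal uridylyl transferase genes Tut4 and Tut7, which act with LIN28, had 8.65 ± 3.67 and 6.33 ± 1.05 TPM (SD, n = 3).

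The let-7 seed and its matches in Lin28b are shown because Lin28b is the 1 member of the 8 whose 3′ UTR holds one. All 8 let-7 5p forms matched by name in RefSeq (GRCm38.p6) share the seed, bases 2 to 8, in capitals here for let-7a-5p, and the capitals in the Lin28b stretches are its match CTACCTC, searched on the transcript strand only.
mmu-let-7a-5p: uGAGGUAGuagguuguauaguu
Lin28b site 1 (chr10:45381022-45381044): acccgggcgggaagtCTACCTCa
Lin28b site 2 (chr10:45378648-45378670): tatacttgttagtaaCTACCTCt
Lin28b site 3 (chr10:45378476-45378498): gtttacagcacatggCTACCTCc
Lin28b site 4 (chr10:45377060-45377082): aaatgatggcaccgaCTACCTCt
The 4 matches lie in a 3′ UTR of 4445 nt on the minus strand, and 0.0581% of 20657 genes with an annotated 3′ UTR have as many. At least 1 match occurs in 9.18% of those genes, whose median 3′ UTR of 989 nt is shorter, and in 9 of the 13 genes of the LIN28 and let-7 list. That list was drawn up around LIN28 and let-7, let-7 targets included, so its share is no result of these data. Hmga2, Igf2bp1 and Trim71 also have 4, and Lin28a has 2. A match describes the letters, and mature let-7 was not measured.

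**Figure D3:**
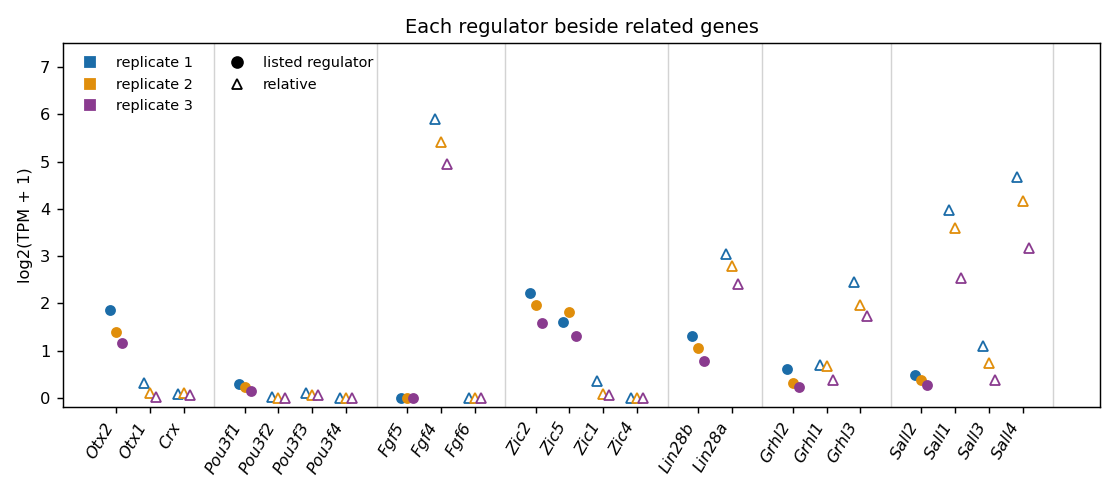
log2(TPM + 1) of each regulator (filled circles) and of related genes (open triangles) in the 3 replicates (colours). Fgf4, Lin28a, Grhl3, Sall1 and Sall4 lie above the listed member of their family in every library, and the relatives of Otx2 and Pou3f1 lie below.

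Ordered by mean TPM, the members ran Zic2, Zic5, Otx2, Lin28b, Grhl2, Sall2, Pou3f1 and Fgf5. Of the 7 neighbouring pairs in this order, 4 differed beyond the spread, defined as the same sign in every library and a mean difference in log2(TPM + 1) over 2 SD. Otx2 exceeded Lin28b by 0.42 ± 0.10, Lin28b exceeded Grhl2 by 0.67 ± 0.10, Sall2 exceeded Pou3f1 by 0.16 ± 0.04, and Pou3f1 exceeded Fgf5 by 0.22 ± 0.08 (SD, n = 3 for each). The 95% counting intervals of Lin28b and Grhl2 overlapped in no library, but those of Sall2 and Pou3f1 overlapped in every library. Those of Otx2 and Lin28b, and of Pou3f1 and Fgf5, overlapped in replicates 2 and 3. Zic2 and Zic5, Zic5 and Otx2, and Grhl2 and Sall2 could not be ordered in this way. Of all 28 pairs of members, 23 differed beyond the spread. The share over pairs of other genes was not computed, so these counts of pairs are a description. No test is given, since the smallest p that a two-sided exact sign-flip permutation test over 3 libraries allows is 0.25.

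Replicate 3 was the lowest library in TPM for all 7 detected members, and replicate 1 the highest for 6 of them, Zic5 being highest in replicate 2. This is near the background: 75.9% of protein-coding genes above the floor were lowest in replicate 3 and 82.1% were highest in replicate 1. In CPM, 7 of 7 members were lowest in replicate 3, against a background of 60.3%. The median ratio of replicate 1 to replicate 3 was 1.59 in CPM over the 7 members and 1.14 over 12318 protein-coding genes. Replicate 3 was also low for long genes in general, as seen over protein-coding genes averaging 20 counts or more. The median of its log2 CPM difference from the mean of replicates 1 and 2 went from 0.09 in the length class of the shortest transcripts to -0.40 in that of the longest, with 10 classes of about equal size. The 7 members lay between -0.89 and -0.38, each below the median of its own length class. Otx2, at -0.89, lay below the 10th percentile of its class (-0.53), and the other 6 lay above theirs, Zic2 (-0.58) by little (-0.59). What part length has in the members' values was not tested.

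**Figure D4:**
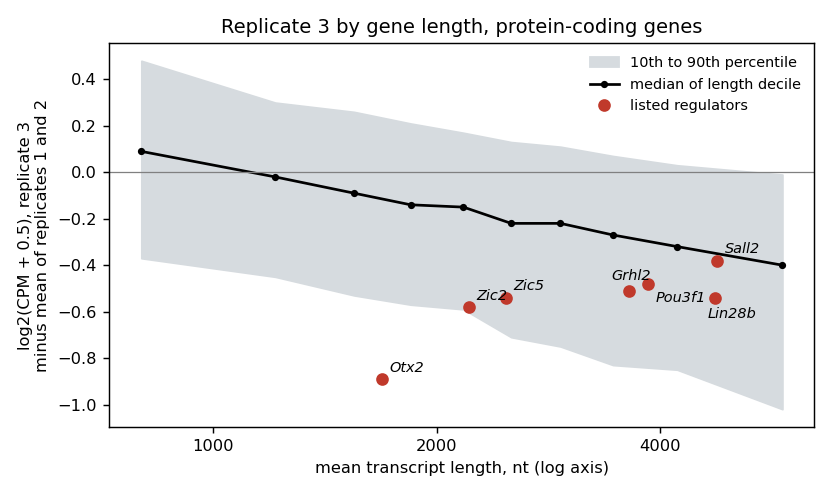
Difference of replicate 3 from the mean of replicates 1 and 2 in log2(CPM + 0.5), against mean transcript length on a log axis, for protein-coding genes in 10 length classes (black, median; grey, 10th to 90th percentile) and for the 7 detected regulators (red). Otx2, at -0.89, lies below the grey band and the others lie inside it.

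Whether any member varied between libraries by more than genes of like abundance was tested across all genes. The edgeR goodness-of-fit test called 1.84% of 12577 genes at a Benjamini-Hochberg adjusted p under 0.05, and 0 of the 6 members tested, with 0 at an unadjusted p under 0.05. Of all genes it called 232, against 89 of 12558 without replicate 1, 63 of 13302 without replicate 2 and 93 of 13608 without replicate 3. With DESeq2 size factors, 231 of 12577 genes and again 0 members were called. The smallest unadjusted p by edgeR among the members was 0.121, for Otx2, and the adjusted p was 1.0 for all 6. Over the alternatives the smallest adjusted p of a member by edgeR ran from 0.887 to 1.0, and none had an unadjusted p under 0.05. With all 3 libraries Pou3f1 and Fgf5 were below the count filter. Pou3f1 entered 3 of the alternatives, with an unadjusted p of 0.821 without the filter, 0.51 without replicate 2 and 0.962 without replicate 3, and Fgf5 entered none.

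The members lay below most genes of the naive state. The 13 naive genes had a median log2(TPM + 1) of 4.69 ± 0.44 (SD, n = 3), and the difference from the median of the 8 members was 3.95 ± 0.24 (SD, n = 3). In every library, 12 of the 13 naive genes exceeded the highest member, from Prdm14 at 3.44 ± 0.90 TPM to Zfp42 at 68.8 ± 2.39 TPM (SD, n = 3). The exception was Dppa3, which has a role in the germline and early embryo, at 0.47 ± 0.0624 TPM (SD, n = 3). All 4 core pluripotency genes also exceeded every member. These lists and the members were chosen with earlier results of these data known, so the difference is a description. In bulk RNA, fewer cells of a type and less RNA per cell cannot be told apart, so a low level may be a low level in all cells or a higher one in a few.

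The other formative and primed genes were not uniformly low. Of 17 listed, 9 had a mean of at least 1 TPM, 6 were at or below 3 counts in every library and the median log2(TPM + 1) was 1.34 ± 0.07 (SD, n = 3). Etv5, an ETS factor, was highest at 23.1 ± 7.80 TPM, and its relative Etv4 had 7.37 ± 2.54 TPM (SD, n = 3 for each). The methyltransferase genes Dnmt3a, Dnmt3b and Dnmt3l had 4.73 ± 0.749, 3.30 ± 0.51 and 7.42 ± 2.12 TPM (SD, n = 3). Nodal, a ligand of the TGF-beta family, had 6.61 ± 1.51 TPM (SD, n = 3), and Tcf7l1, a repressor of the naive network, 10.2 ± 6.66 TPM (SD, n = 3) with 16.76, 10.54 and 3.45 in the single libraries. Tcf15 was above 1 TPM in each library. At the low end, Cer1 and Foxa2 had 0 counts throughout, and T, Lef1, Sox3 and Fgf8 had at most 2 counts in any library.

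**Figure D5:**
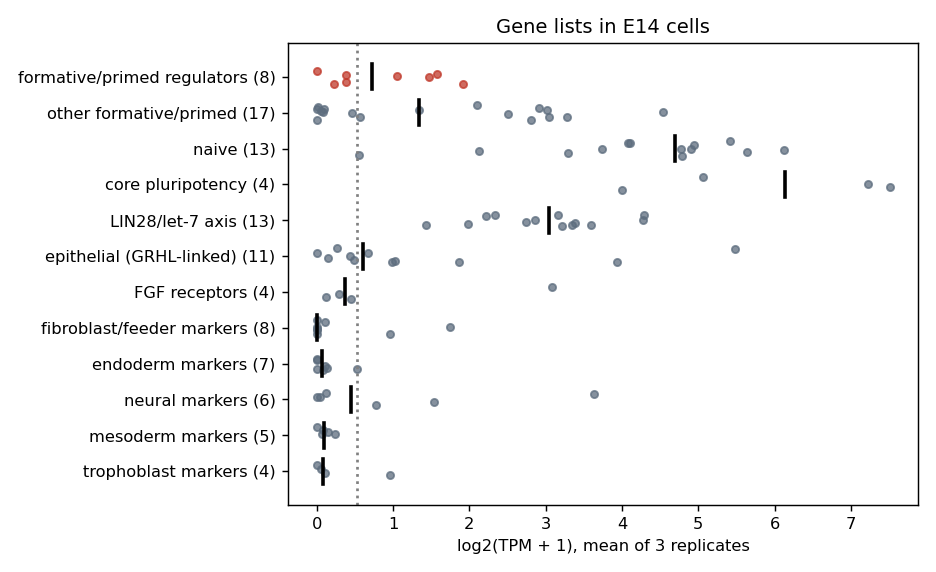
log2(TPM + 1), averaged over 3 replicates, of every gene in each list (points; number of genes in brackets) with the list's median (bar); the dotted line is the median of all protein-coding genes, 0.53. The 8 regulators (red) lie between 0 and 1.92, below 12 of the 13 naive genes.

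Several members are also genes of neural progenitors, so markers of other cell types were read. Of 6 neural markers, 2 had a mean of at least 1 TPM: Tubb3 at 11.6 ± 2.47 and Nes at 1.92 ± 0.393 TPM (SD, n = 3). Sox1 had 0.733 ± 0.235 TPM (SD, n = 3), Pax6 had at most 4 counts in a library and Neurod1 at most 3. The summed neural level was 11.9 to 17.7 TPM, most of it Tubb3. The 7 endoderm markers summed to 0.33 to 0.93 TPM and the 5 mesoderm markers to 0.32 to 0.50 TPM. The 4 trophoblast markers summed to 0.90 to 1.20 TPM, mostly Eomes. Of 8 fibroblast or feeder markers, 4 (Col3a1, Lum, Dcn and Postn) were at 0 counts in every library, Thy1 had 2.5 ± 1.15 TPM and Pdgfrb 0.977 ± 0.435 TPM (SD, n = 3). The part of other cells in the members' levels was not tested.

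The genes most like each detected member over the 3 libraries were found by the root mean square difference in log2(TPM + 1) among protein-coding genes. Lin28b was nearest to Macrod1, listed at the same 1.49, 1.07 and 0.72 TPM. Otx2 was nearest to Mmd and Vcan, Zic2 to Ncoa1 and Ubn1, and Zic5 to Slc25a26 and Csgalnact2. Grhl2 was nearest to Nrg1 and Tspan18, Sall2 to Chst14 and Akap5, and Pou3f1 to Zscan4e and Cx3cl1. The number of genes within 0.1 of a member ran from 26 for Zic5 to 394 for Pou3f1, so such likeness is common. With a pseudocount of 1, genes near 0 TPM lie close together on this scale.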

How the data were processed

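RNA-seq of E14 cells (3 replicates) was analysed. Per the labels' protocols, Trizol RNA was digested with DNase, rRNA was depleted, and a directional kit was used for cDNA. Per the file headers, the tables carry the column names of RSEM gene output. The submitters' processing notes name STAR, RSEM and mm10 without versions; strand setting and annotation release are not given in the sources used here. The authors deposited expected counts (estimated counts per gene from their RSEM run, not normalized), TPM scaled to library and length, and FPKM, which was not used here. Lengths were deposited in nucleotides.

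Groups and replicate numbers come from the sample titles. Members, lists, tests and alternatives were chosen with earlier results of these data known. Symbols, transcripts and coordinates came from GENCODE vM21 (GRCm38, the same assembly as mm10): 55227 of 55487 IDs matched, and 114 of 114 listed symbols. Named genes were the members, listed genes, genes overlapping a member or starting within 5000 bp of it, and the 2 nearest genes per member; Gm12241 was chosen after its values were seen. Some genes that this rule names are not reported here. Of 34123 genes with 1 transcript, 34062 had that transcript's length in the tables, and of 1998 genes with 2 transcripts and counts, 1992 had a mean length between both.

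Counts were rounded for edgeR 4.0.16 in R 4.3.3 (goodness-of-fit under the trended dispersion, intercept alone, TMM, filterByExpr), which was tested on simulated data; the tolerance for whole counts was 0.005. DESeq2 1.42.0 gave alternative size factors. The pseudocount was 1. Counting intervals are exact Poisson (95%); like the floor of 3 counts, they hold counting error alone, and reads copied by PCR are not separate molecules. Python 3.11.15 (pandas 2.3.3, numpy 2.4.6, scipy 1.17.1) did the rest; matplotlib 3.10.9 drew the figures. Alternatives changed unit, limits, pseudocount, denominator, length, dispersion and replicates. No columns of other samples were present.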

Additional observations from a re-analysis of the deposited data

How the results depend on the processing

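The 5 counts and differences were recomputed under 36 alternatives. Of these, 3 used 1 fixed length per gene in TPM and were chosen after seeing the data. Of the 36, 29 stayed within the allowed spread, which for counts took in changes such as 4 to 6 pairs or 7 to 6 members above the floor. Only the naive minus member difference could change sign, and it did not. The other results are counts, which cannot reverse. The number of members averaging at least 1 TPM, 4, became 7 at a CPM of at least 1 and 2 at a limit of 2 TPM, and was 3 to 4 when 1 replicate was left out (3 without replicate 1). The naive minus member difference, 3.95, became 5.15 with a pseudocount of 0.1, 3.32 with means, 4.50 with CPM, 4.66 without short genes in the denominator and 3.64 with genes above the floor alone, and was 3.88 to 4.09 when 1 replicate was left out. The number of neighbouring pairs beyond the spread, 4, was 6 in CPM and 4 to 6 when 1 replicate was left out. Members were ordered anew under each alternative. In CPM, which is not scaled by length, Lin28b (mean 13.9) was above Otx2 (7.91) and Sall2 (3.84) above Grhl2 (2.82). Members above the floor numbered 6 at a floor of 10 counts and 7 whenever 1 replicate was left out. Members varying beyond the trend numbered 0 in each fit. Of 56 recomputed member levels, 34 moved by at most 1 SD, and the rest changed with the unit, denominator or pseudocount. The 34 include all 24 that left out 1 replicate. A mean of 3 values cannot move by 1 SD when 1 of them is left out, so those 24 were bound to stay. The same bound applies to the naive minus member difference when 1 replicate is left out. Why the values moved was not tested. Depth limits the low end: at 7 counts in replicate 3, Pou3f1 is near the floor.

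No paired analysis was possible because only the RNA-seq group was used, which leaves no second group with the same numbers.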
